A study of Mus musculus with 12 samples.

Results

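The 8 genes Tcp1, Cct2, Cct3, Cct4, Cct5, Cct6a, Cct7 and Cct8 encode the subunits of CCT, the chaperonin of the mammalian cytosol. They were taken by gene symbol, 1 transcript each, which makes 8 of the 15803 transcripts in the data, and all 8 are listed in all 12 libraries. The libraries come from KPC cells, an established mouse line of pancreatic ductal adenocarcinoma whose tumours of origin carried Trp53 LSL-R172H and Pdx1-Cre, so all groups share this background and stand for a single line in culture. Ribosome footprints and RNA were each sequenced from untreated cells, from cells with Cis (cisplatin) for 6 h and from cells with Cis for 21 h, with 2 libraries for each group and assay. The dose of 20 μM is the one in the study's methods, and the labels do not give a duration for the untreated cells.

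CCT is built of stacked rings in which each of the related subunits has its own place. It takes up newly made actin, tubulin and several other proteins, some of them handed over by prefoldin, and releases them folded after it has bound and hydrolysed ATP. Because each ring needs a copy of each subunit, the relative amounts in which the subunits are made are a usual question about this family.

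Values are scaled RPKM: reads per kilobase, of coding sequence in footprints and of the whole transcript in RNA, corrected for library size, as the authors deposited them, divided by a factor for each library that brings the typical ratio between libraries to a common level. RPKM is per length, so levels of different subunits are set side by side within an assay. This takes the listed transcript as the one expressed and reads of all subunits as mapped equally well, which was not tested. The coding sequences are of similar size, from 1593 bases to 1668 bases, while the transcripts run from 1853 (Cct5) to 2588 bases (Cct6a). A library of footprints holds a median of 4173675 reads and a library of RNA 2319070. The 3 most abundant transcripts take 51.8% to 56.6% of the RNA reads. By library this share is 54.5% and 53.8% in untreated cells, 56.6% and 56.5% at 6 h, and 53.8% and 51.8% at 21 h. Its part in the CCT values was not tested. The smallest number of reads for a subunit in any library is 1871 in footprints and 306 in RNA, the latter for Cct2.

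All 8 subunits are abundant in both assays. Averaged over the 6 footprint libraries they lie between 332 and 906, where the median over 10383 tested genes is 17.9 and from 2.20% to 5.57% of those genes are higher than a given subunit. In RNA they lie between 86.8 and 219, with a median of 6.78 over 9443 tested genes and from 1.61% to 3.99% of genes higher. Together the 8 transcripts take from 0.850% to 0.896% of the footprint reads of a library and from 0.257% to 0.320% of its RNA reads. Without the 3 most abundant transcripts of each library these shares are 0.875% to 0.930% in footprints and 0.580% to 0.663% in RNA.

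**Figure D1:**
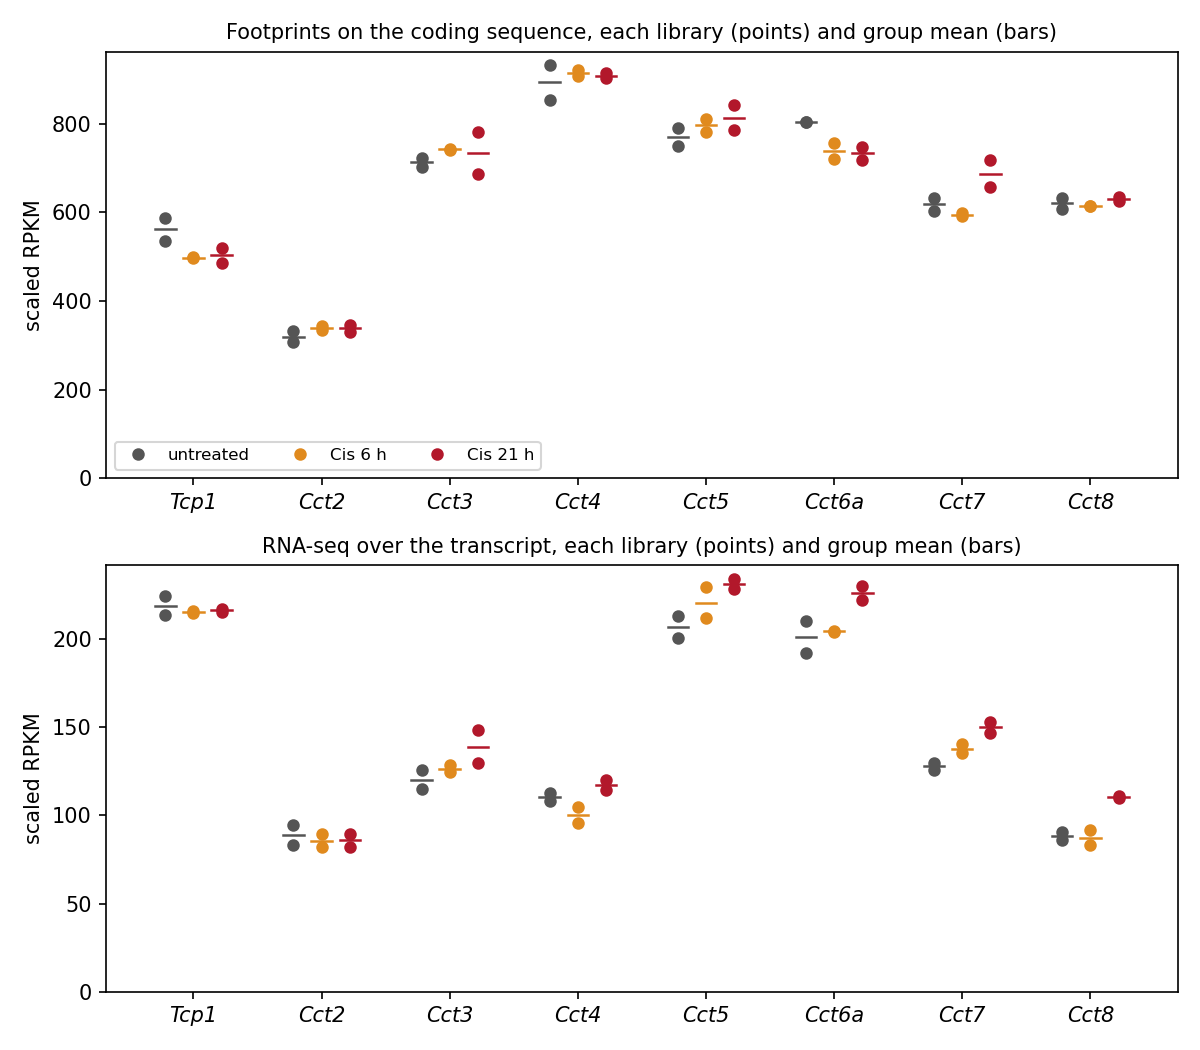
Scaled RPKM of each CCT subunit in each library, footprints and RNA; each point is 1 library.

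The measured levels of the subunits differ in both assays. In footprints the order of the means over 6 libraries is Cct4 (906), Cct5 (794), Cct6a (758), Cct3 (729.6), Cct7 (633), Cct8 (622), Tcp1 (521) and Cct2 (332). Cct4 is the highest and Cct2 the lowest in every footprint library, and the fold between them is 2.57 to 3.04. Between the ends, Cct5 is above Cct3 in all 6 libraries, while Cct6a is above Cct5 in both untreated libraries and below it in the 4 treated ones, and above Cct3 in 4 libraries and below it in 2. Cct8 is above Cct7 in the untreated and 6 h libraries and below it in both at 21 h. Over the 6 libraries the levels of Cct6a and of its 2 neighbours overlap, as do those of Cct7 and Cct8. The RNA order is another: Cct5 (219), Tcp1 (217), Cct6a (210.2), Cct7 (138), Cct3 (128), Cct4 (109), Cct8 (95.4) and Cct2 (86.8). Tcp1 is the highest in 3 RNA libraries, Cct5 in 2 and Cct6a in 1, so these 3 neighbours do not differ beyond their spread, and the lowest is Cct2 in 4 libraries and Cct8 in 2. The highest RNA level in a library is 2.35 to 2.80 times the lowest.

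The spread among subunits, given as the coefficient of variation over the 8 levels of a library and averaged over the 2 libraries of a group, is 26.7% in untreated footprints, 27.8% at 6 h and 27.0% at 21 h. In RNA the same coefficients are 37.7%, 39.3% and 36.0%, and without division by transcript length 41.4%, 42.0% and 39.2%. Every footprint library is thus more even than every RNA library. Without Cct2, a choice made after its level was seen, the coefficient is 16.7% to 20.1% in footprints and 30.1% to 38.6% in RNA.

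Summed over the 8 subunits, footprints are at 5300.4 (SD 155) in untreated cells, 5240.0 (SD 47.8) at 6 h and 5348 (SD 94.9) at 21 h, n = 2 each. Summed RNA is at 1161 (SD 12.4), 1177 (SD 0.413) and 1275 (SD 8.67). The 2 summed RNA levels at 21 h are above the other 4, while the summed footprint levels of untreated cells (5191 and 5410.04) span those of 6 h (5206 and 5274) and overlap those of 21 h (5281 and 5415), and both at 21 h are above both at 6 h. In bulk cultures such as these, fewer cells and less RNA per cell cannot be told apart, and a level here is a share of the library.

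Each assay was compared gene by gene with limma, all genes in the model, and a gene is called at a Benjamini-Hochberg adjusted p below 0.05. The comparisons of 6 h and of 21 h share the untreated libraries, so their values are set side by side. The study makes a general statement that experiments were repeated or used independent samples but does not say that these replicates are separate cultures, and p therefore measures the spread between these libraries only. Among footprints, 0 of 8 subunits are called at 6 h, where 2.04% of 10383 genes are, 0 are at an unadjusted p below 0.05, where 21.4% of genes are, and 0 are called with limma-voom, where 12.3% are. At 21 h against untreated 0 are called beside 39.1% of genes, 0 unadjusted beside 48.6% and 0 with limma-voom beside 44.8%. At 21 h against 6 h 0 are called beside 30.7%, 1 unadjusted beside 42.3% and 1 with limma-voom beside 35%. In RNA 0 subunits are called at 6 h (0 unadjusted, 0 with limma-voom), where limma calls 0% of 9443 genes, 1086 of them (11.5%) having an unadjusted p below 0.05 and limma-voom calling 57 higher and 172 lower (2.43%). In RNA at 21 h against untreated 1 of 8 is called, higher (2 unadjusted, and 4 with limma-voom: Cct3, Cct6a, Cct7 and Cct8), where 23.8% of genes are called and 11.6% are called higher, 37% are unadjusted and 31.8% are called with limma-voom. At 21 h against 6 h 1 of 8 is called in RNA, again Cct8 and again higher (2 unadjusted, and 2 with limma-voom: Cct4 and Cct8), where 15.7% of genes are called and 7.53% are called higher, 31% are unadjusted and 21.3% are called with limma-voom.

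Cct8, the theta subunit, is the 1 that is called. Its RNA is at 90.7 and 86.0 in untreated cells, 91.7 and 83.1 at 6 h, and 110.0 and 111 at 21 h. Both libraries at 21 h are above all 4 others, and the untreated and 6 h libraries overlap. Cct8 RNA rose 1.25-fold at 21 h against untreated (log2 0.32, SE 0.09, interval 0.12 to 0.53, adjusted p = 0.0297) and 1.27-fold against 6 h (log2 0.34, SE 0.09, interval 0.14 to 0.54, adjusted p = 0.033). Its footprints are at 609 and 633, then 615 and 615, then 635 and 625. The footprint groups of untreated and 21 h overlap, with a log2 difference of 0.02 (SE 0.07, adjusted p = 0.833). The call against untreated is lost with quantile normalization (adjusted p = 0.0535), without the trend in the variance (0.171), and without untreated library 1 (0.091), untreated library 2 (0.159), 21 h library 1 (0.0822) or 21 h library 2 (0.098), and over 16 alternatives its adjusted p runs from 0.00109 to 0.171. The call against 6 h is lost in 9 of 16 alternatives, among them every removal of 1 RNA library: untreated 1 (0.0551), untreated 2 (0.0535), 6 h 1 (0.0517), 6 h 2 (0.159), 21 h 1 (0.0988) and 21 h 2 (0.117), over a range from 0.00182 to 0.188. Where a compared group is left with 1 library, the spread comes from the other groups, and with any 1 library left out the log2 value stays between 0.28 and 0.36 against untreated and between 0.27 and 0.41 against 6 h.

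Cct7, the eta subunit, comes closest to a call after it. Its RNA is at 129 and 126 in untreated cells, 140.1 and 135 at 6 h, and 153 and 147 at 21 h, so the 3 groups stand in the order of time and do not overlap. The log2 difference at 21 h against untreated is 0.23 (SE 0.08, adjusted p = 0.0627). Cct7 footprints are at 603 and 633, 591 and 599, and 657 and 717, highest in the 2 libraries at 21 h. The footprint difference is 0.15 against untreated (SE 0.08, adjusted p = 0.154, value 0.099 to 0.22 over 16 alternatives) and 0.21 against 6 h (SE 0.08, adjusted p = 0.0767). The latter passes on unscaled RPKM (adjusted p = 0.0496) and with limma-voom (0.0317), over a range from 0.0317 to 0.276. Its 2 libraries at 21 h lie above both untreated libraries in both assays, which on unscaled RPKM holds for Cct4, Cct5 and Cct8 also.

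Cct3 and Cct6a, the gamma and zeta subunits, belong with Cct7 and Cct8 to the side of the ring known to bind ATP less tightly. Cct3 RNA is at 125 and 115, then 129 and 124, then 129 and 148, and its footprints at 702 and 724, 742 and 744, and 686 and 781. The footprint libraries at 21 h lie below and above all others, and in RNA both libraries at 21 h are above both untreated ones, with a log2 difference of 0.20 (SE 0.09, adjusted p = 0.146). Cct6a RNA is at 192 and 210.0, 204 and 204, and 222 and 229.8, and its footprints at 804 and 803, 720.1 and 756, and 749 and 717. The 2 assays differ in order for Cct6a: the libraries at 21 h are the highest in RNA (log2 0.17, SE 0.08, adjusted p = 0.141), and all 4 treated libraries are below both untreated ones in footprints (log2 -0.12 at 6 h, adjusted p = 0.368, and -0.13 at 21 h, adjusted p = 0.178).

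Cct4, Cct5, Cct2 and Tcp1, the delta, epsilon, beta and alpha subunits, form the side known to bind ATP more tightly. Cct4 footprints are at 855 and 932, 922 and 908, and 903 and 915, and Cct4 RNA is at 112 and 108, 105 and 95.8, and 114 and 120.0. Its footprint groups overlap, while its RNA is lowest at 6 h and highest at 21 h, with a log2 difference between these of 0.22 (SE 0.09, adjusted p = 0.117). Cct5 footprints are at 751 and 791, 782 and 811, and 785 and 843, and Cct5 RNA is at 213 and 201, 212 and 229, and 234 and 228. The Cct5 groups overlap in footprints, and in RNA the 21 h libraries are above the untreated ones (log2 0.16, SE 0.08, adjusted p = 0.158).

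Cct2 has footprints at 332 and 307, 336 and 344, and 345 and 331, and RNA at 94.6 and 83.3, 82.0 and 89.3, and 89.4 and 82.1. Its RNA groups overlap throughout, and its footprint difference at 21 h is 0.08 (SE 0.08, adjusted p = 0.444). Tcp1 footprints are at 536 and 587, 499 and 497, and 520.4 and 486, all 4 treated libraries below both untreated ones. The log2 difference of Tcp1 footprints is -0.17 at 6 h (SE 0.08, adjusted p = 0.263) and -0.16 at 21 h (SE 0.08, adjusted p = 0.157). Tcp1 RNA is the steadiest of the 8, at 213 and 224, 215 and 216, and 217 and 215, with a difference of -0.02 at 21 h (SE 0.07, adjusted p = 0.894).

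**Figure D2:**
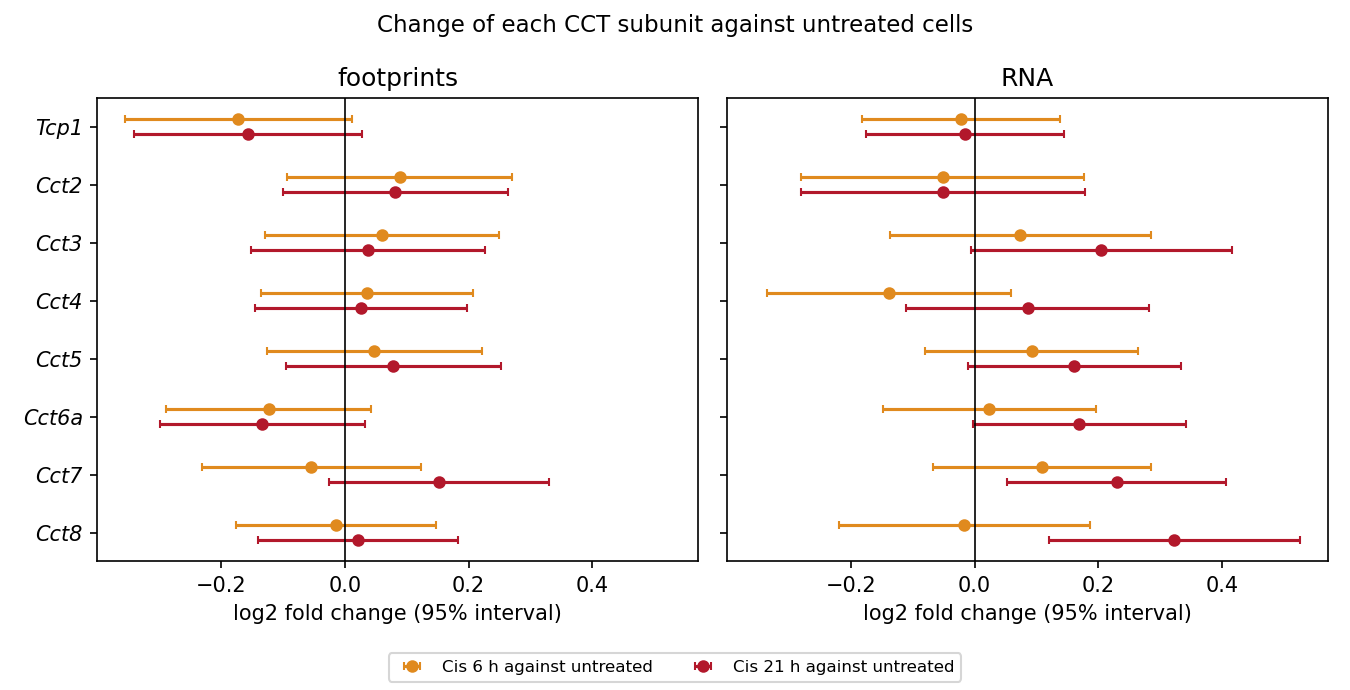
Log2 fold change of each CCT subunit against untreated cells, with its 95% interval, in footprints and RNA at 6 h and 21 h. On unscaled RPKM the RNA values at 21 h all move up and all 8 are above 0. The median over all genes is then at 0.09.

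Read as a family, the subunits stay within narrow limits in footprints, taken as shares of a library. The study reports by puromycin incorporation that cisplatin inhibited protein synthesis. A fall common to all genes would not appear in these values. The median log2 difference over the 8 is 0.01 at 6 h, beside -0.01 over all tested genes, with 95% intervals of single subunits reaching from -0.36 to 0.27. At 21 h it is 0.03 beside 0.01, with intervals from -0.34 to 0.33, and 0.00 beside 0.00 at 21 h against 6 h. The median size of the footprint difference at 21 h, whatever its sign, is 0.08 over the subunits and 0.38 over all genes. The median tested gene is at 17.9 in footprints, far below every subunit. Low levels give wider differences, and no background matched for level was drawn. Footprint differences at 21 h are above 0 for 6 subunits and below 0 for Tcp1 and Cct6a, 6 and 2 on unscaled RPKM also, and 4 and 4 after quantile normalization. The shares of all genes on each side of 0 were not counted.

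In RNA the family's median is 0.00 at 6 h beside -0.01 over all genes, 0.17 at 21 h beside 0.02, and 0.13 at 21 h against 6 h beside 0.01. Of the RNA differences at 21 h against untreated 6 are above 0, where on unscaled RPKM 8 are and after quantile normalization 7. Against 6 h 8 are above 0 (8 unscaled, 7 after quantile normalization), though those of Tcp1 and Cct2 are 0.01 and 0.00. The shares of all genes above 0 were not counted, and the 8 values share their libraries. The scaling matters for this family: without it the median over all genes in RNA at 21 h against 6 h goes from 0.01 to 0.15, the subunits' median from 0.13 to 0.28, the called subunits from 1 to 4, and the share of all genes called from 15.7% to 18.5%. Without scaling the subunits' median in RNA at 21 h against untreated goes from 0.17 to 0.25, with 4 called (Cct5, Cct6a, Cct7 and Cct8), and over all genes the median goes from 0.02 to 0.09 and the share called from 23.8% to 24.7%. Quantile normalization calls 2 others there, Cct5 (adjusted p = 0.0276) and Cct6a (0.0287), with 21.4% of all genes, and a variance without trend calls 0, with 17% of all genes.

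Counts of subunits whose libraries do not overlap need no model but depend on the scaling, and with 2 against 2 libraries chance gives 16.7% in each direction. In footprints at 6 h Cct2 and Cct3 have both libraries above both untreated ones (2 of 8, background 25.7%) and Tcp1, Cct6a and Cct7 have both below (3 of 8, background 28.6%). In footprints at 21 h Cct7 is above (1 of 8, background 35.4%) and Tcp1 and Cct6a are below (2 of 8, background 35%). Against 6 h Cct7 and Cct8 footprints are above at 21 h (2 of 8, background 33.2%) and 0 of 8 are below (background 33.6%). In RNA at 6 h Cct7 is above (1 of 8, background 21%) and Cct4 below (1 of 8, background 23%). In RNA at 21 h Cct3, Cct4, Cct5, Cct6a, Cct7 and Cct8 have both libraries above both untreated ones (6 of 8, background 33.3%) and 0 are below (background 30.6%). Against 6 h Cct3, Cct4, Cct6a, Cct7 and Cct8 are above in RNA (5 of 8, background 29.7%) and 0 below (background 28.4%). On unscaled RPKM 3 are above and 3 below in footprints at 6 h (background 27.2% and 27.3%), and 5 above and 2 below at 21 h (37.5% and 32.5%), Cct2, Cct4, Cct5 and Cct8 joining Cct7. Unscaled RNA at 6 h has 1 above and 2 below (15.1% and 29.7%), at 21 h 6 above (38.3%), and at 21 h against 6 h all 8 above (40.1%).

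Translation efficiency (TE) is the log2 ratio of footprints to RNA of a gene, here less the median of all genes in the same library pair. Since footprints are per coding sequence and RNA per transcript, a level of TE also holds the relation of these lengths, which cancels when groups are compared. The methods take both assays from cell lysates, but the labels link libraries only by a replicate number, so a pair is formed by number. Cct4 has the highest TE of the subunits, at 1.21 and 1.39 in untreated cells, 1.43 and 1.54 at 6 h, and 1.30 and 1.23 at 21 h. Cct8 follows at 1.03 and 1.16, 1.04 and 1.18, and 0.85 and 0.80. Cct4 is above Cct8 in each of the 6 pairs. Tcp1 is the only subunit below the median gene throughout, at -0.38 and -0.32, -0.49 and -0.50, and -0.41 and -0.52.

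The mean log2 TE over the 6 pairs runs Cct4 (1.35, SD 0.12), Cct8 (1.01, SD 0.16), Cct3 (0.81, SD 0.09), Cct7 (0.49, SD 0.10), Cct2 (0.23, SD 0.09), Cct5 (0.16, SD 0.07), Cct6a (0.15, SD 0.14) and Tcp1 (-0.44, SD 0.08). Cct2, Cct5 and Cct6a do not differ beyond their spread, and the steps above and below them are wider. The SD of TE over the 8 subunits is 0.57, and over 9295 genes, which were not matched to the subunits for level, it is 1.10. Of all tested genes 8.94% have a higher TE than Cct4 and 65.9% a higher TE than Tcp1. Tcp1, Cct5 and Cct6a, with the most RNA, are among the 4 of lowest TE, and Cct4 and Cct8, below 5 other subunits in RNA, have the 2 highest, but Cct2, with the least RNA, is also among the 4 of lowest TE. RNA is the denominator of TE, so the 2 orders are not independent measurements.

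**Figure D3:**
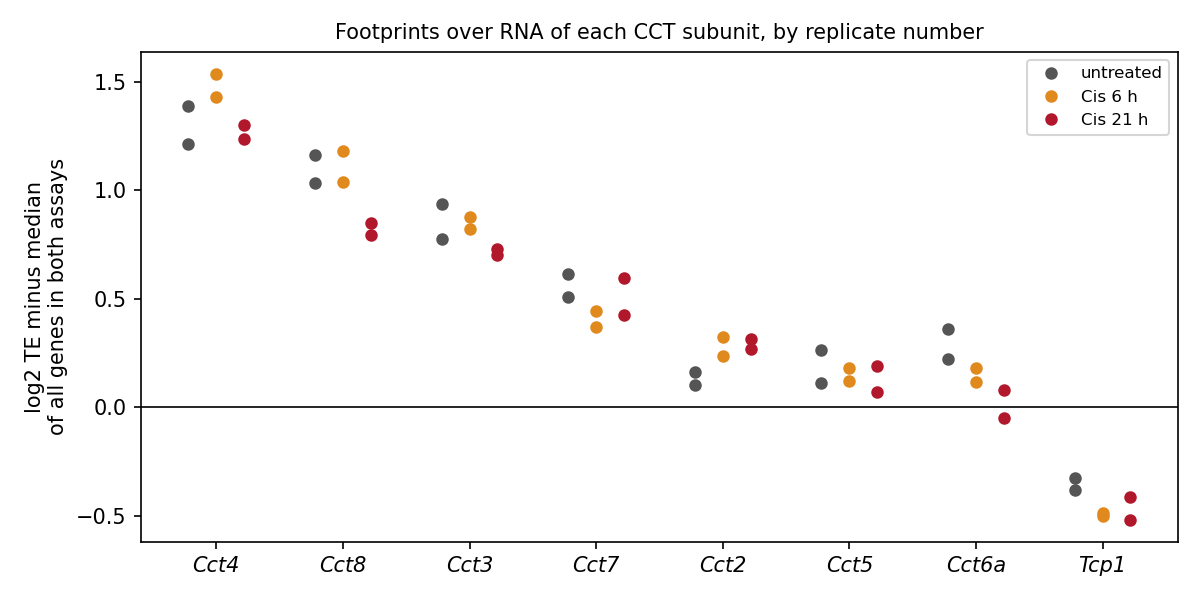
Log2 TE of each CCT subunit over the median gene in each of the 6 library pairs.

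Whether TE differs between groups was tested in 1 model of all 12 libraries, by the term for footprints beyond RNA. At 6 h 0 of 8 subunits are called (0 unadjusted, 0 with limma-voom), where limma calls 0% of 9295 genes, 710 (7.64%) having an unadjusted p below 0.05 and limma-voom calling 14 (0.151%). At 21 h against untreated 0 are called beside 0.409% of genes, 2 have an unadjusted p below 0.05 beside 12.7%, and 0 are called with limma-voom beside 1.62%. At 21 h against 6 h 0 are called beside 1.01%, 1 is unadjusted beside 13.6%, and 0 are called with limma-voom beside 1.84%. The lowest values at 21 h against untreated are those of Cct6a (-0.30, SE 0.10, adjusted p = 0.254) and Cct8 (-0.30, SE 0.11, adjusted p = 0.281), and the highest is that of Cct2 (0.13, SE 0.13, adjusted p = 0.716). Cct6a TE is at 0.36 and 0.22 in untreated cells, 0.12 and 0.18 at 6 h, and 0.08 and -0.05 at 21 h, every treated pair below both untreated ones. The family's median TE difference is -0.03 at 6 h beside -0.01 over all genes, -0.11 at 21 h beside -0.04, and -0.10 at 21 h against 6 h beside -0.04. Without scaling it becomes 0.05 beside 0.07 at 6 h and -0.23 beside -0.16 at 21 h against 6 h, and after quantile normalization it becomes -0.20 beside -0.02 at 21 h. Of the TE differences at 21 h against untreated 7 are below 0, in each of the 3 scalings. Over all genes the median there is also below 0, at -0.04, at -0.08 unscaled and at -0.02 after quantile normalization. The share of all genes below 0 was not counted, and the 8 values share their libraries.

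In the annotation of RefSeq for GRCm38.p6, 6 of the subunits have an arrangement around the gene that the choice of members did not use. Promoter windows, 250 bases before to 50 after a start, are in the table for 7 members (9 windows) and Cct4 is not in it. Of these 7 genes 6 (85.7%) have the start of another gene on the opposite strand within 1000 bases and pointing away, against 12.2% of 27025 genes. Those genes were not matched to the members for level or for their share of G and C. The partners and distances between starts are Mrpl18 for Tcp1 (238 bases), Tsacc for Cct3 (136), Atpsckmt for Cct5 (270.0), Psph for Cct6a (103), Pradc1 for Cct7 (203) and B130034C11Rik for Cct8 (204). Cct2 has none. These partners were looked up after other values had been seen.

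Psph, which makes serine from phosphoserine, is the partner with the most footprints. They are at 285 and 320.1 in untreated cells, 332 and 295 at 6 h, and 412 and 397 at 21 h, and its RNA is at 25.1 and 24.2, 24.9 and 26.0, and 32.3 and 33.8. In both assays the 2 libraries at 21 h are above the other 4. Psph rose at 21 h in footprints (log2 0.42, SE 0.09, adjusted p = 0.00764) and in RNA (0.41, SE 0.12, adjusted p = 0.0303), the latter lost without untreated library 1 (0.109), untreated 2 (0.141), 21 h 1 (0.0755) or 21 h 2 (0.121), with quantile normalization (0.0902) and without the variance trend (0.0923). Cct6a, which starts 103 bases away, has an RNA difference of 0.17 and a footprint difference of -0.13 there. Mrpl18, a protein of the mitochondrial ribosome, has footprints at 96.5 and 86.3, 104 and 103, and 110.1 and 132, in the order of time. Mrpl18 footprints rose at 21 h (0.40, SE 0.11, adjusted p = 0.0213, lost without untreated 2 at 0.118 or 21 h 2 at 0.105, with quantile normalization at 0.0518 and without the variance trend at 0.072), its RNA difference is 0.13 (adjusted p = 0.398), and Tcp1 beside it has a footprint difference of -0.16. Tsacc, Atpsckmt and Pradc1 have few reads and are not called.

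In the 9 windows 7 motifs were searched on both strands. GGGCGG is in 8 windows of 7 members (35.7% of 32851 promoters hold it), CCAAT in 4 windows, those of Cct3, Cct6a, Cct7 and Tcp1 (37.4%), and CCGGAAG in 3, of Cct2, Cct8 and Tcp1 (8.86%). GAANNTTC, the paired unit of a heat shock element, is in 1 window of Cct2 (7.86%). CACGTG (7.15%), TATAAA (13.6%) and TGACGTCA (1.79%) are in 0. The median share of G and C is 60.3% in the member windows and 52.7% in all promoters. A match is a run of letters and not a site, and binding was not tested. The windows below are those of the subunit that is called (Cct8), of the subunit with the steadiest RNA (Tcp1) and of the one that shares its region with Psph (Cct6a), at chr16:87495820-87496119 on the minus strand, chr17:12916079-12916378 on the plus strand and chr5:129787106-129787405 on the plus strand, shown 5′ to 3′ from RefSeq GRCm38.p6, with capitals at matches to any of the 7 motifs on either strand.
Cct8: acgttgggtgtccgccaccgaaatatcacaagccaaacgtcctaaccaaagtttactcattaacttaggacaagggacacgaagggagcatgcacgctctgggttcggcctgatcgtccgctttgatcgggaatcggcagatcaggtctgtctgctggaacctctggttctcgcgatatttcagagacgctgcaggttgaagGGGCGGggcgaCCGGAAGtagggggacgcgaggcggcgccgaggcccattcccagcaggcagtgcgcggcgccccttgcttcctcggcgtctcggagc
Tcp1: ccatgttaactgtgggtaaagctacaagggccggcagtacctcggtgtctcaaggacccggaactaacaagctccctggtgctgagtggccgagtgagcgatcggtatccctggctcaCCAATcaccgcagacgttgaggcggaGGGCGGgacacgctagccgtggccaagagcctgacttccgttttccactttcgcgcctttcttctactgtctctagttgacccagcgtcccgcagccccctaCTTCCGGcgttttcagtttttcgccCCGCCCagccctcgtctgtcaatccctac
Cct6a: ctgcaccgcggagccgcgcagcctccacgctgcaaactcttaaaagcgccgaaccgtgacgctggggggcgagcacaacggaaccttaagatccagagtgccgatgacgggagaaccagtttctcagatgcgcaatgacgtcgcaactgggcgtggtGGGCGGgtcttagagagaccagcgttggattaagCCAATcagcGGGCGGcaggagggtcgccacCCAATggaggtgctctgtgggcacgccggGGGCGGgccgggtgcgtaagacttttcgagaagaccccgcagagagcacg

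The genes that behave most like the subunits were found by the distance between a gene's 12 centred log2 values and the mean of the subunits', over 3438 genes of enough signal. The nearest 5 are Chp1 (root mean square distance 0.0396), Cnbp (0.0501), Aebp2 (0.0517), Tars (0.0521) and Kars (0.0559), where the median gene is at 0.202. Kars and Tars charge the tRNAs of lysine and threonine. Chp1 footprints are at 410.1 and 424, 425 and 414, and 414 and 420.1, and its RNA at 61.3 and 57.6, 57.2 and 54.5, and 62.2 and 60.6. Chp1 footprints overlap between the groups, and its RNA is lowest in the 2 libraries at 6 h. The subunits' own distances to their mean run from 0.0475 (Cct5) to 0.0885 (Cct2). Each subunit is part of this mean, which lowers its distance, so these values cannot be ranked among the other genes.

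Of 5 chaperonin-like genes outside the complex, all rare here, 3 were tested in footprints and 2 in RNA, and 0 were called, with Bbs12 the most abundant in footprints (6.61) and Mkks in RNA (2.95). Prefoldin, which hands actin and tubulin to CCT, has 6 subunits, all tested. At 21 h 2 were higher and 1 lower in footprints (median 0.23) and 1 higher and 0 lower in RNA (median 0.12). Pfdn1, the most abundant in footprints of untreated cells, is at 724 and 787 in untreated cells, 735 and 721 at 6 h, and 533 and 495 at 21 h. Both libraries at 21 h are well below the other 4, and Pfdn1 footprints fell (log2 -0.55, SE 0.08, adjusted p = 0.000991). Pfdn4 rose in footprints (0.31, adjusted p = 0.0129, lost without 21 h library 2 at 0.0563) and in RNA (0.66, adjusted p = 0.00841, lost without untreated 2 at 0.0653 or 21 h 2 at 0.0556). Vbp1 rose in footprints (0.37, adjusted p = 0.0176, lost without untreated 2 at 0.0964 or 21 h 2 at 0.0862). Without the trend in the variance these 3 calls are lost as well (Pfdn4 at 0.0707 in footprints and 0.0525 in RNA, Vbp1 at 0.0731). The 3 of 6 called in footprints stand beside 39.1% of all genes and the 1 in RNA beside 23.8%, and a difference from CCT was not tested.

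The prefoldin-like list has 3 subunits, and at 21 h 1 is higher and 2 are lower in footprints (39.1% of all genes are called), 0 higher and 1 lower in RNA (23.8%). The call of Uxt in footprints (-0.58, adjusted p = 0.028) is lost with no filter (0.0589) and without the variance trend (0.0756). It is also lost without untreated 1 (value -0.57), untreated 2 (-0.59) or 21 h 2 (-0.31). That of Uri1 in RNA (-0.59, adjusted p = 0.0472) is lost with no filter (0.0806), unscaled (0.0912) and without the variance trend (0.0813). It is also lost with only the groups compared (0.0583) and without any 1 RNA library, at values from -0.74 to -0.42. Uri1 footprints are at 18.8 and 22.8, 17.7 and 17.8, and 9.67 and 11.8, lowest at 21 h, and fell (-0.92, SE 0.16, adjusted p = 0.0028). Pdrg1 rose (0.76, SE 0.13, adjusted p = 0.00226), from 31.1 and 38.4 in untreated cells to 55.9 and 62.1. Among phosducin-like and thioredoxin-like cofactors of CCT, 3 of 4 are listed, with 1 higher and 1 lower in footprints at 21 h and 0 called in RNA, beside the same shares of all genes. The lower one, Pdcl (-0.36), is barely past the threshold and lost in 10 alternatives, among them a pseudocount of 0.1 (0.0527), unscaled RPKM (0.0692) and the removal of untreated 1 (0.122), untreated 2 (0.155), 6 h 1 (0.0771), 6 h 2 (0.0764) or 21 h 1 (0.266, with the value itself at -0.17). Txndc9, known to bind CCT, has footprints at 144 and 157, 173 and 172, and 241 and 220.5. It stands in the order of time and rose at 21 h (0.61, SE 0.09, adjusted p = 0.00103).

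Actin and tubulin, the main clients, were tested for 14 genes in footprints and 13 in RNA. At 21 h 8 were higher and 2 lower in footprints (median 0.44 beside 0.01 over all genes), and 7 higher and 3 lower in RNA (median 0.47 beside 0.02). Tubb2a footprints are at 35.2 and 38.8 in untreated cells, 57.4 and 55.2 at 6 h, and 101.2 and 127 at 21 h. Tubb3 footprints are at 2.83 and 5.67, 12.0 and 8.52, and 25.2 and 24.0. Both beta tubulins climb in the order of time with no overlap between groups. At 21 h Tubb2a rose in footprints (log2 1.61, SE 0.13, adjusted p = 6.25e-05) and RNA (1.22, SE 0.21, adjusted p = 0.00342), and so did Tubb3 (2.47, SE 0.29, adjusted p = 0.000378, and 1.71, SE 0.25, adjusted p = 0.00169). Actb, the most abundant client, is at 5469 and 5062, 6311 and 5973, and 3856 and 4117 in footprints, lowest at 21 h. Actb is among those called lower there. The list holds mostly tubulin genes, so its medians stand for tubulin more than for actin. Over all genes 18.9% are called higher and 20.2% lower in footprints at 21 h (11.6% and 12.2% in RNA), and a difference between clients and CCT was not tested.

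Tubulin folding cofactors work after CCT. Of 5, 0 were higher and 3 lower in footprints at 21 h (median -0.48), and 0 higher and 2 lower in RNA (median -0.12). Tbcd footprints are at 13.7 and 15.9, 13.8 and 12.2, and 3.03 and 5.34, and its RNA is at 5.42 and 6.50, 5.92 and 4.26, and 0.949 and 1.12. The libraries at 21 h are far below the rest, and Tbcd fell in footprints (-1.75, SE 0.25, adjusted p = 0.000922) and in RNA (-2.07, SE 0.26, adjusted p = 0.000714). Tbca, the most abundant, fell in footprints (-0.48, SE 0.11, adjusted p = 0.0111, lost without 21 h library 2 at 0.0542 and without the variance trend at 0.0603). The third call in footprints, Tbce (-0.62, adjusted p = 0.0123), is lost without untreated 2, where its value is -0.49. The call of Tbca in RNA (-0.44, adjusted p = 0.0226) is lost with no filter (0.0579) and without the variance trend (0.137). It is also lost without untreated 1 (value -0.43), untreated 2 (-0.45) or 21 h 2 (-0.25). Over all genes 20.2% are called lower in footprints at 21 h and 12.2% in RNA.

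Of 12 other clients, many with beta-propeller folds, 2 were higher and 0 lower in footprints at 6 h, beside 2.04% of all genes called, and both of these calls, Ccne1 (0.97, adjusted p = 0.0253) and Mlst8 (0.64, adjusted p = 0.0471), are lost without any 1 of the 4 libraries, at 0.0593, 0.107, 0.145 and 0.123 for Ccne1 and 0.129, 0.198, 0.19 and 0.245 for Mlst8, and also with the replicate block (0.0518 and 0.0732). At 21 h 4 were higher and 3 lower in footprints, beside 39.1% of all genes called, and 4 higher and 3 lower in RNA, beside 23.8%. Gnb1, the beta subunit of a G protein, is at 387 and 381, 403 and 382, and 215 and 213 in footprints. The untreated and 6 h libraries are alike, those at 21 h are lower, and Gnb1 fell (-0.84, SE 0.08, adjusted p = 0.00011). Rptor, of the mTOR complex, fell in footprints (-1.77, SE 0.23, adjusted p = 0.000613) and RNA (-1.71, SE 0.26, adjusted p = 0.00181), Vhl rose in footprints (0.92, SE 0.14, adjusted p = 0.00119), and Wrap53 rose in RNA (1.26, SE 0.19, adjusted p = 0.00183).

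The lists of other folding machines are short, 39.1% of all genes are called in footprints at 21 h, 2.04% at 6 h and 23.8% in RNA at 21 h, and no difference from CCT was tested. The mitochondrial chaperonin has 2 genes, of which 0 were higher and 1 lower in footprints at 6 h, 0 higher and 2 lower at 21 h, and 0 called in RNA. Hspe1 footprints are at 920.0 and 994, 667 and 608, and 712 and 620.1, with all 4 treated libraries below both untreated ones. Hspe1 fell at 21 h (-0.52, SE 0.09, adjusted p = 0.0028), and its call at 6 h (-0.59, adjusted p = 0.0289) is lost without untreated 1 (0.0767), untreated 2 (0.114), 6 h 1 (0.141) or 6 h 2 (0.216), and with the replicate block (0.0564). The second gene lower at 21 h, Hspd1 (-0.25, adjusted p = 0.033), is lost in 8 alternatives, among them the removal of untreated 2 (0.134), 6 h 1 (0.0715), 6 h 2 (0.0708), 21 h 1 (0.0881) or 21 h 2 (0.103). Of cytosolic HSP70 and HSP90 chaperones 9 of 11 were tested, with 1 higher and 0 lower in footprints at 6 h, 4 higher and 2 lower at 21 h, and 5 higher and 1 lower in RNA at 21 h. The call at 6 h, Dnajb1 (0.50, adjusted p = 0.0415), is lost without untreated 1 (0.115), untreated 2 (0.166), 6 h 1 (0.23) or 6 h 2 (0.196), with the replicate block (0.0688), with no filter (0.0856) and without the variance trend (0.136). Hsp90aa1, the inducible HSP90, has footprints at 1510.13 and 1527, 1329 and 1264, and 2296 and 2109.8, lowest at 6 h and highest at 21 h. It rose at 21 h in footprints (0.54, SE 0.08, adjusted p = 0.000922) and RNA (0.66, SE 0.08, adjusted p = 0.000466), as did Dnaja1, a cochaperone of HSP70, in footprints (0.77, SE 0.11, adjusted p = 0.00106). In TE 0 genes of these lists are called.

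Markers fit the label of an epithelial tumour line, except that Epcam has at most 9 reads in a library. Of 5 epithelial markers, led by Krt8 in abundance, 0 were higher and 3 lower in footprints at 21 h. In RNA 4 of them were tested, with 1 higher and 3 lower. Over all genes 20.2% are called lower in footprints and 12.2% in RNA. Krt8 in RNA (-0.32, adjusted p = 0.014) is at -0.05 after quantile normalization (0.584) and is lost without the variance trend (0.183), untreated 1 (0.109) or 21 h 2 (0.0546). Cdh1 in RNA (-0.46, adjusted p = 0.0203) is lost unscaled (0.0522), without the variance trend (0.0872), untreated 2 (0.142), 21 h 1 (0.0669) or 21 h 2 (0.0759). Their summed footprints are at 9695 and 9255 in untreated cells, 9304 and 9238 at 6 h, and 6545 and 6715 at 21 h, and their summed RNA at 1525 and 1441, 1529 and 1463, and 1261 and 1243. Both sums are lowest at 21 h, where CCT RNA is highest, and the part of this shift in the CCT values was not tested. Fibroblast and endothelial markers are near 0 and passed the filter for 0 genes, with Pecam1 and Cdh5 at 0 in all RNA libraries. Of 4 immune markers 1, Cd68, passed the filter, with 1 and 3, 0 and 0, and 5 and 9 reads in RNA. Cd68 is called higher in RNA at 21 h against untreated (adjusted p = 0.0299, lost without untreated 1 at 0.193 or untreated 2 at 0.0576, with a pseudocount of 0.1 at 0.0865 and with limma-voom at 0.0879) and against 6 h (adjusted p = 0.00375), where both 6 h libraries are at 0. On so few reads no fold is given, Ptprc is at 0 in all RNA libraries, and a part of these markers in the CCT values was not tested.

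RefSeq names 15 pseudogene copies of 6 of the 8 subunits (Cct7 5, Cct3 3, Cct6a 3, Cct8 2, Tcp1 1, Cct4 1). How reads that match several places were treated is not stated, and so the levels of these 6, Cct8 included, may hold or lack reads shared with a copy.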

How the data were processed

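Ribosome footprints and RNA were measured in KPC cells, 2 libraries per group, untreated and with Cis for 6 h or 21 h. Per the study's methods cells were lysed with cycloheximide, digested with RNase I, and fragments of about 25 to 35 nt were sequenced; controls received PBS. The submitters' processing notes name cutadapt, STAR and GRCm39. The deposited values are RPKM, computed by the authors for 1 transcript per gene, over its coding sequence in footprints and its whole length in RNA; transcripts without reads are not listed and were set to 0. Reads were recovered from RPKM, length and the smallest step of each file, and came out whole.

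Within each assay RPKM was scaled by median-of-ratios factors (0.981 to 1.02 in footprints, 0.959 to 1.09 in RNA). Genes whose scaled RPKM averaged 1 or more were tested on log2(scaled RPKM + 0.5) with limma 3.58.1 in R 4.3.3 (trended empirical Bayes, 3 groups in the model), p adjusted by Benjamini-Hochberg over all tested genes. TE was tested as the interaction over 12 libraries. Other values came from Python 3.11.15 with pandas 2.3.3, numpy 2.4.6, scipy 1.17.1 and matplotlib 3.10.9. The steps were tested on simulated data. Footprint libraries hold 3375480 to 5204127 reads and RNA libraries 1985344 to 2901692, and the subunits' group means rest on 2 values each.

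Tried as alternatives were other pseudocounts (0.1, 1), other filters (none, 5), unscaled RPKM, quantile normalization, no variance trend, only the groups compared, a replicate block, limma-voom on the recovered reads, and each library left out in turn. In each of 13 lists beside the subunits up to 3 called genes with the largest change per comparison and the most abundant gene were eligible to be named. The 5 nearest genes were taken from those averaging 10 or more in each assay. The members and lists were chosen with earlier results of these data known. Coordinates of RefSeq (GRCm38.p6) were used only for promoters, neighbours and copies, since its build is not that of the files. Part of the line's genotype is not reported here.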

Additional observations from a re-analysis of the deposited data

Results flagged for a closer look

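The results here were picked out because the change since treatment differed between 6 h and 21 h by the direct test of 21 h against 6 h. All values are log2 fold changes of 21 h against 6 h, and genes with 0 reads in a 6 h library were left out. Of each list of other genes only the up to 3 called genes with the largest change are given, so these are not all the genes called. Among the subunits this is Cct8 in RNA alone (0.34).

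In footprints the folding cofactors so picked were Pfdn1 (-0.50), Pfdn4 (0.27), Uri1 (-0.70), Pdcl (-0.66), Txndc9 (0.41), Tbcd (-1.57), Tbca (-0.63) and Tbce (-0.55). The clients in footprints were Tubb3 (1.24), Tubb2a (1.004), Tuba1a (0.65), Rptor (-0.97), Gnb1 (-0.87) and Ccne1 (-0.66). The other chaperones, markers and neighbours in footprints were Hsp90aa1 (0.76), Dnaja1 (0.67), Hspa8 (-0.54), Krt19 (-0.66), Krt8 (-0.62) and Psph (0.37).

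In RNA the cofactors were Pfdn4 (0.57), Tbcd (-1.85) and Tbcc (1.02), and the clients Tubb3 (0.93), Actg1 (-0.70), Tubb4b (0.42), Rptor (-1.59) and Gnb1 (-0.57). Hsp90aa1 (0.91), Hspa8 (-0.71), Dnaja1 (0.63), Krt19 (-0.63) and Krt8 (-0.40) complete the RNA values. Of these 34 values 18 are lost in at least 1 alternative and 16 in none. Cct8 in RNA is lost in 9, Tubb3 in RNA in 8 (every removal of 1 RNA library among them) and in footprints in 2, Pfdn4 in 5 in footprints and 4 in RNA, and Tubb4b in RNA in 4. Lost in 3 are Uri1, Txndc9, Tuba1a, Tbce and Psph in footprints and Dnaja1 and Krt8 in RNA, in 2 Rptor in footprints, and in 1 Ccne1 in footprints and Gnb1 and Krt19 in RNA. Tbcc in RNA (adjusted p = 0.0344 with limma) is lost in 9 alternatives, among them the removal of 6 h library 1, where it is at 0.56 (0.154). Krt8 in RNA is at -0.11 after quantile normalization, where it is not called (0.265).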

How the results depend on the processing

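With 2 libraries per group, calls of single subunits depend on the settings. The calls of Cct8 in RNA were kept under most settings that use all libraries and lost under most that leave 1 out, where a compared group can be down to 1 library and the spread comes from the other groups, with a log2 value that stayed at 0.27 to 0.41. Of 1296 values of single subunits under alternatives 1201 kept their direction and side of the threshold, 15 calls were lost and 15 gained, 65 values that were not called changed sign, and 0 called values did. Of 83 called values of the other named genes 43 were kept under every alternative and 0 reversed.

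The number of called subunits, with the share of all genes called in brackets, was 1 (23.8%) in RNA at 21 h against untreated, and it was 4 (24.7%) unscaled, 2 (21.4%) after quantile normalization, 0 (17%) without the trend, 4 (31.8%) with limma-voom, and 0 to 1 (11.2% to 24.4%) with 1 library left out. At 21 h against 6 h in RNA it was 1 (15.7%), and it was 4 (18.5%) unscaled, 2 (13.6%) after quantile normalization, 2 (21.3%) with limma-voom, 0 (6.25%) with no filter, 0 (8.37%) without the trend, 0 (12.5%) with only the groups compared, and 0 (7.24% to 12.7%) with any 1 library left out. In footprints at 21 h against 6 h it was 0 (30.7%), and 1 (30.7%) unscaled and 1 (35%) with limma-voom, Cct7 both times.

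The subunits' median log2 difference, compared with an SD between replicates of 0.05 in each assay and 0.07 in TE, moved unscaled to -0.065 in RNA at 6 h, 0.25 in RNA at 21 h, 0.28 in RNA at 21 h against 6 h, 0.054 in TE at 6 h and -0.23 in TE at 21 h against 6 h. After quantile normalization it moved to 0.17 in RNA at 21 h against 6 h, -0.20 in TE at 21 h and -0.18 in TE at 21 h against 6 h. With 1 library left out the footprint median at 6 h ran from -0.042 to 0.0196. It ran from 0.0009 to 0.053 at 21 h against untreated, and from 0.0027 to 0.024 at 21 h against 6 h. The TE median ran from -0.075 to 0.025 at 6 h and from -0.16 to -0.05 at 21 h. At 21 h against 6 h the TE median ran from -0.11 to -0.05. Computed on reads without division by length, the coefficient of variation among subunits was 27.4% in footprints at 6 h, and 41.4%, 42.0% and 39.2% in untreated, 6 h and 21 h RNA.

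With the replicate number as a block Cct8 kept both RNA calls (adjusted p = 0.0339 and 0.0389 with limma) and Cct7 footprints at 21 h against 6 h stayed uncalled (0.093). Across groups the labels link replicates only by a number. Within an assay, the correlation over genes of the replicate differences between groups ran from -0.07 to 0.06. This does not show whether replicates of the same number shared a culture or a batch.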
